A study of Caenorhabditis elegans with 4 samples.

Results

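The 550 LIN-13 peaks on chromosome V are described here, out of 3503 on all 6 chromosomes of the combined peak list. A peak was taken as a member when the combined list placed it on V, whatever its strength. They reached from V 7855 to V 20875048 and covered 417211 bp, or 2.00% of a chromosome extent of 20.9 Mb. The lists of the single ChIP samples held 239 V peaks of 1494 in replicate 1 and 314 of 1997 in replicate 2. All positions are first and last bases in WormBase WS180, counted from 1.

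Peaks came from chromatin immunoprecipitation and sequencing (ChIP-seq), which recovers DNA crosslinked to a chosen protein. Both groups, 2 ChIP samples and 2 inputs of total chromatin, were L2 hermaphrodites of strain OP49, reared at 20 degrees with HB101 bacteria as food. All carry the mutation unc119(ed3) and the transgene wgIs49, which holds lin-13::TY1 EGFP FLAG and a copy of unc119 and was brought in by bombardment. Antibodies to GFP pulled down the tagged protein, and no untagged strain was analysed here. Separate cultures for the ChIP samples are not stated in any label, so the spread between them may be technical, and the peak lists carry no read counts, so depth is unknown.

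The zinc-finger protein LIN-13 belongs to the synMuv B genes, chromatin regulators that oppose vulval fates in the worm. It is known to act with the heterochromatin protein HPL-2 and with LIN-61, and to bind the Rb-related protein LIN-35. Autosomes of C. elegans have gene-dense, well conserved centres with little recombination, flanked by arms that recombine more, hold more repeats and carry more H3K9 methylation. Chromosome V is the longest of them, and its arms are known for large families of chemoreceptor genes. No annotation of the files' build was used here, so the peaks are named by position and not by gene.

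Peaks were about 2 times as dense in the centre of chromosome V as in its arms. With arms taken as the outer 25% at each end, the left arm ran to 5.22 Mb and the right arm began at 15.7 Mb. The left arm held 83 combined peaks or 15.9 per Mb, and the right arm held 103 or 19.7 per Mb. The centre held 364, or 34.9 per Mb. The arms therefore held 33.8% of the peaks (95% Wilson interval 30.0 to 37.9%) on 50% of the length.

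Each ChIP sample showed the same layout. In replicate 1 the left arm, centre and right arm held 40, 153 and 46 peaks, or 7.66, 14.7 and 8.81 per Mb. In replicate 2 they held 54, 203 and 57, or 10.3, 19.4 and 10.9 per Mb. The arm share was 36.0% in replicate 1 (30.2 to 42.2%) and 35.4% in replicate 2 (30.3 to 40.8%). These intervals cover counting of peaks only, and neighbouring peaks are not independent.

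Along the chromosome, the 3 megabases with the most combined peaks lay side by side in the centre. They were the ones from 10 to 13 Mb, with 63, 52 and 41 combined peaks. In replicate 1 the same megabases had 21, 20 and 14 peaks, and in replicate 2 they had 31, 30 and 20. The order was not the same in the replicates, where the megabase from 13 to 14 Mb had 20 and 21 peaks, more than that from 12 to 13 Mb, and in replicate 1 the one from 9 to 10 Mb had 15. The centre to the left of them was thinner, with 19 to 31 combined peaks in each megabase from 6 to 10 Mb.

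Within the arms the low point lay inward of the chromosome ends. On the left, the megabase from 2 to 3 Mb had 10 combined peaks and 3 in each replicate, against 19 combined peaks in the outermost megabase. On the right, the megabases from 16 to 18 Mb had 9 each, whereas those from 19 Mb to the end had 30 each. In 10 stretches of equal length, stretches 2 and 9 of V held 12.9 and 11.5 combined peaks per Mb, while the outermost held 18.2 on the left and 32.6 on the right. The profile of peak density shows these inner-arm troughs in all 3 lists.

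**Figure D1:**
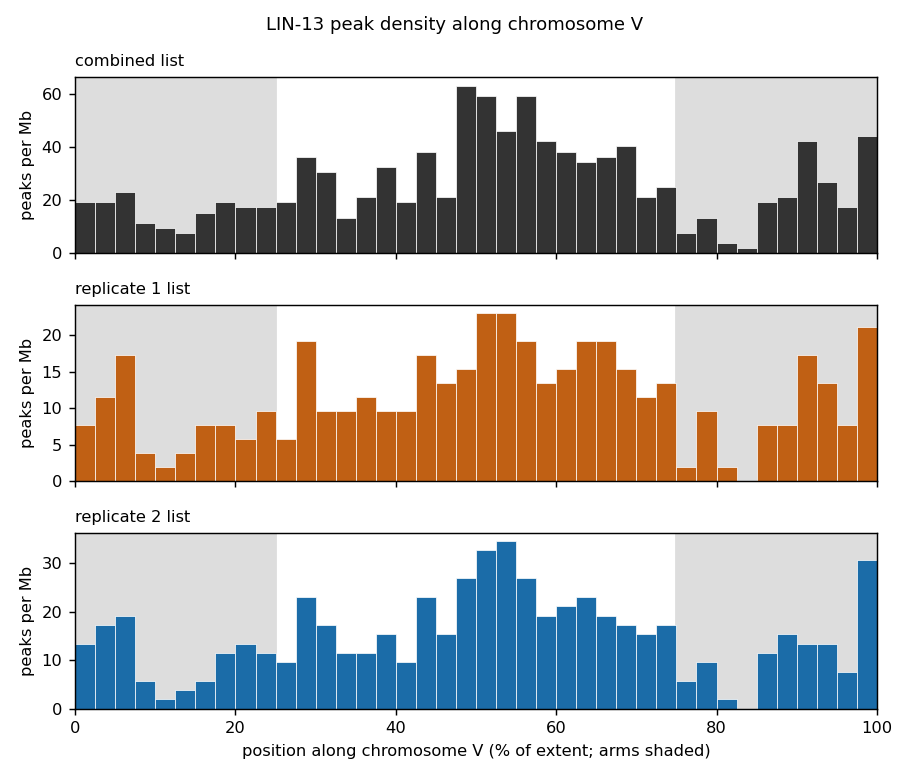
Density of LIN-13 peaks along chromosome V. The x axis gives position as a percentage of the extent in 40 slices, the y axis gives peaks per Mb, each panel is 1 list, and shading marks the arms (outer 25% at each end). All 3 lists are highest close to the middle, the combined list just before it and both replicates just past it, and all dip inside both arms and rise again at the right end.

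The peaks beside the arm limits were ordinary members. On the left, V 5064728 to 5065634 was the last arm peak (−log10 q 11.2, found in both replicates), and V 5269049 to 5269344 was the first of the centre (4.63, found in neither). On the right, V 15590259 to 15590464 was the last of the centre (5.02) and V 15658195 to 15658400 the first arm peak (4.30). Here −log10 q is the strength of a peak, computed from the q-value that the authors' peak caller gave it.

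Set beside the other autosomes, V differed most in its arms. In the arms V had 17.8 combined peaks per Mb, against 32.2 to 56.1 in the arms of chromosomes I to IV. It had 8.24 against 10.6 to 29.2 in replicate 1, and 10.6 against 15.8 to 32.1 in replicate 2. The arms of V were the sparsest in all 3 lists. In the centre V had 34.9 per Mb against 37.3 to 66.2, the lowest value in the combined list. Within the replicates the V centre lay inside the range of the others, at 14.7 against 12.6 to 28.2 in replicate 1 and at 19.4 against 17.5 to 40.1 in replicate 2.

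The ratio of centre to arm density was 1.96 on V in the combined list, and 1.13 to 1.18 on the other 4 autosomes. It was 1.78 against 0.97 to 1.19 in replicate 1 and 1.83 against 1.11 to 1.26 in replicate 2. The V arm share lay 12.5 percentage points below the mean of the others in the combined list, 12.5 below in replicate 1 and 10.5 below in replicate 2. With the chromosome as the unit, an exact two-sided permutation test over the 5 autosomes gave p = 0.2 in each list (adjusted p = 0.67 over 20 comparisons). That is the smallest p which 5 chromosomes allow, so none of these comparisons could pass 0.05. The low arm share of V was also known before the measures were chosen, so its p is descriptive only. Density over the whole chromosome was also lowest on V in each list, with exact permutation p = 0.4, since chromosome III, at 61.1 per Mb, stood farther from the rest.

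**Figure D2:**
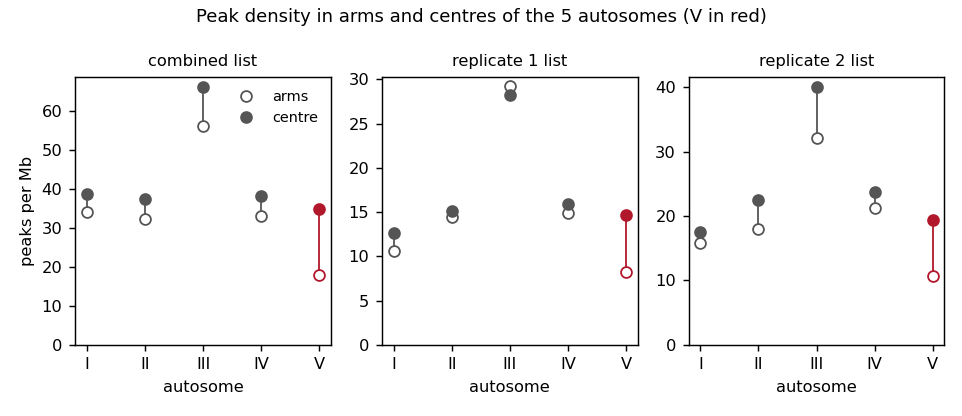
Peak density in arms (open circles) and centres (filled circles) of each autosome, with V in red. The y axis gives peaks per Mb and each panel is 1 list. The V arms are the lowest open circles in every panel, at 17.8, 8.24 and 10.6 per Mb, while the V centre sits near those of I, II and IV.

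The arm share of V was below those of the other autosomes among peaks found in both replicates and among those found in neither. Combined peaks found in both replicates had 36.2% in the arms of V (72 of 199, interval 29.8 to 43.1%), against 47.1 to 48.9% on the other autosomes. Those found in neither replicate had 30.8% (72 of 234, 25.2 to 37.0%), against 45.2 to 47.1%. Among peaks found in 1 replicate it was not the case in every class. Those of replicate 2 alone had 35.5% in the arms of V (33 of 93), against 36.4 to 47.3% elsewhere, but those of replicate 1 alone had 37.5% (9 of 24), above the 31.2% of chromosome I (5 of 16) and below II, III and IV. With the V peaks ranked by strength and cut into 4 groups of equal size, the arm share from the weakest to the strongest was 31.2, 32.1, 33.6 and 38.4%, with intervals that overlapped. No such order was seen in the replicates, where the 4 groups had 36.7, 36.7, 30.5 and 40.0% in replicate 1. In replicate 2 the weakest group had 36.7% (29 of 79), each of the middle groups had 26 of 78 peaks in arms, and the strongest had 38.0% (30 of 79). Among the best 50 combined peaks of V, 22 lay in arms (44.0%, 31.2 to 57.7%), against 33.8% of all V peaks, which include these 50. Of the 50, 34 lay in clusters. The intervals given here count peaks as independent and so are no test of a difference. The best 100 had 41.0% in arms (31.9 to 50.8%) and the best 200 had 37.0% (30.6 to 43.9%). Above the limit of strength of the strongest V group, the other 4 autosomes together had 49.0% in arms, against the 38.4% of V.

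Strength and width differed little between arms and centre. The median −log10 q was 7.29 in the left arm, 6.47 in the centre and 6.98 in the right arm of the combined list. In replicate 1 the medians were 5.90, 6.07 and 5.86, and in replicate 2 they were 6.52, 6.75 and 7.14, so no zone was strongest in all lists. Median widths were 537, 533.5 and 517 bp in the combined list, 508, 490 and 513.5 bp in replicate 1 and 450.5, 480 and 529 bp in replicate 2. Peaks covered 1.31% of the length of the arms, against 2.69% of the centre.

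Most V peaks were narrow. The median width was 533 bp, with quartiles of 383 and 818 bp and a range of 36 to 10225 bp. There were 67 peaks under 300 bp, 184 from 300 bp to under 500 bp and 203 from there to under 1000 bp. Widths from 1000 to under 2000 bp were seen for 67 peaks, and 29 spanned 2000 bp or more. Wider peaks were stronger, with a median −log10 q of 4.18 in the narrowest class and 22.9 in the widest. Across the 550 peaks Spearman's rho between width and strength was 0.47, and it was 0.46 to 0.63 on the other autosomes. This is a description over peaks of 1 chromosome, which share their ChIP samples.

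The median V width was the largest of the autosomes in the combined list, where the others had 448 to 520.5 bp (exact permutation p = 0.4). In the replicates it was not. V had 495 bp in replicate 1, rank 3 of 5 within 467 to 554 bp, and 493 bp in replicate 2, within 464 to 546 bp. The median strength was 6.70 on V in the combined list against 6.55 to 7.21 on the others. It was the lowest in replicate 1 (5.97 against 6.14 to 6.61) and the highest in replicate 2 (6.77 against 6.12 to 6.73), with exact permutation p = 0.4 in both.

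The strongest members were a few broad domains and a smaller number of sharp peaks. The strongest, V 6220778 to 6231002, is a domain of 10225 bp in the centre with −log10 q of 249.1. It was a single peak of 9549 bp in replicate 2 (141.7, first of all peaks in that list). In replicate 1 it was split into 2 peaks, the stronger of 6542 bp (92.98, rank 3 in its list). No other peak lay within 15388 bp of it.

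The second, V 723774 to 730607, lies in the left arm and spans 6834 bp. Its strength was 140.9 in the combined list, and its strongest part reached 48.9 in replicate 1 and 70.04 in replicate 2. Each replicate split it into 2 peaks. A further combined peak began 238 bp beyond its end.

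The third, V 18967424 to 18968007 in the right arm, was sharp, at 584 bp. Its strength was 85.5 in the combined list, 41.7 in replicate 1 and 54.8 in replicate 2. The replicates placed it on nearly the same bases, from 18967556 to 18967999 and from 18967562 to 18967998. Other sharp peaks among the best 20 were V 14054986 to 14055508 (523 bp, 43.3), V 10897057 to 10897589 (533 bp, 42.4), V 15189414 to 15190030 (617 bp, 36.2) and V 10965426 to 10965886 (461 bp, 34.6). All 4 lie in the centre.

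The fourth, V 13082156 to 13091360, is a combined domain of 9205 bp with a strength of 80.7. Replicate 1 had 5 separate peaks inside it, of 510 to 1009 bp and strengths of 4.48 to 6.87. Replicate 2 had 4, of 742 to 2036 bp and strengths of 6.75 to 13.7. The replicate peaks covered 3516 and 5627 bp of the domain, and no replicate peak in it passed 13.7.

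The fifth was V 13652507 to 13659621, of 7115 bp and strength 72.4, which replicate 2 had as 1 peak (40.8) and replicate 1 as 3 (highest 22.3). V 14685467 to 14689258, of 3792 bp and strength 55.9, went the other way. It was 1 peak of 3391 bp in replicate 1 (33.0) and 2 peaks in replicate 2, the stronger at 25.9. In all, 16 V peaks held more than 1 peak of a replicate list, 11 of them in replicate 1 and 12 in replicate 2.

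The rest of the best 20 had combined strengths between 32.4 and 68.7. They were V 9729646 to 9732957 (68.7), V 1151098 to 1152515 (66.2), V 9342937 to 9345485 (64.2), V 5049256 to 5050535 (51.2), V 20771831 to 20774663 (49.3) and V 9546043 to 9547972 (46.2), followed by V 20157508 to 20159101 (38.9), V 13907553 to 13909885 (36.8), V 1152807 to 1156468 (35.2) and V 4822944 to 4825183 (32.4). Every one of the 20 overlapped a peak in both replicates. By zone, 5 lay in the left arm, 12 in the centre and 3 in the right arm. Of these 20 peaks, 11 were wider than 2000 bp and 15 had a neighbour at most 5000 bp away.

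The 10 widest V peaks ranged from 3312 to 10225 bp and were all found in both replicates. Besides domains already given they were V 20774875 to 20778546 (3672 bp, strength 18.2), V 7434515 to 7438040 (3526 bp, 22.7) and V 7727410 to 7730913 (3504 bp, 22.9). The centre held 7 of the 10, the left arm 2 and the right arm 1. Of the 4 V peaks wider than 5000 bp, 3 lay in the centre and 1 in the left arm.

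Spacing was uneven, with many close neighbours and a few very long gaps. The median gap between neighbouring combined peaks of V was 16079 bp, with quartiles of 2613 and 45577 bp. The mean spacing, the extent divided by the number of peaks, was 37955 bp, so the median gap was 0.42 of it. On the other autosomes the median combined gap was 7931 to 13942 bp (exact permutation p = 0.4) and 0.44 to 0.50 of the mean spacing. In replicate 1 the V median gap, 48350 bp, lay within the 19891.5 to 49676.5 bp of the others (exact permutation p = 0.6). In replicate 2 it was the largest, 36841 bp against 13076 to 32161.5 bp (exact permutation p = 0.4). The V median gap was 0.55 of the mean spacing in each replicate, against 0.57 to 0.61 in replicate 1 and 0.47 to 0.61 in replicate 2. No gap in any list was shorter than 200 bp, and whether the authors joined closer peaks is not given in the sources used here.

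The left arm was the most open zone. Its median gap was 34431 bp, against 12088 bp in the centre and 18279.5 bp in the right arm. Gaps over 100000 bp made up 25.3% of gaps in the left arm, 5.77% in the centre and 12.7% in the right arm. For the whole of V they were 55 of 549 (10.0%), against 0.83 to 5.85% on the other autosomes in the combined list. In the replicates V was within the range of the others, at 28.2% against 6.35 to 30.5% in replicate 1 and 20.8% against 4.44 to 21.2% in replicate 2.

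The longest gap ran from V 16966029 to 17716887 in the right arm, 750859 bp without a combined peak and without a peak of either replicate. It was longer in the replicates, which both had no peak from about the same left edge, V 16965997 and 16965999, to V 17857790 and 17857823. The longest combined gaps of the other autosomes were 160975 to 393483 bp. In the replicates the contrast was smaller. The longest gap of V was 891794 bp against 352155 to 709767 bp in replicate 1, and 891825 bp against 227787 to 652717 bp in replicate 2. The next 4 on V were V 2694771 to 3195066 (500296 bp), V 15881201 to 16355641 (474441 bp), V 2281935 to 2600547 (318613 bp) and V 19212741 to 19519493 (306753 bp). All 5 lie in arms. Replicate 1 had no peak in any of the 5. Replicate 2 had 1 peak inside the gap from V 15881201, and the replicate 2 partner of the combined peak V 2600548 to 2600939 began at V 2600528, just inside the right edge of the gap from V 2281935. Whether reads can be placed uniquely in these stretches was not tested.

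**Figure D3:**
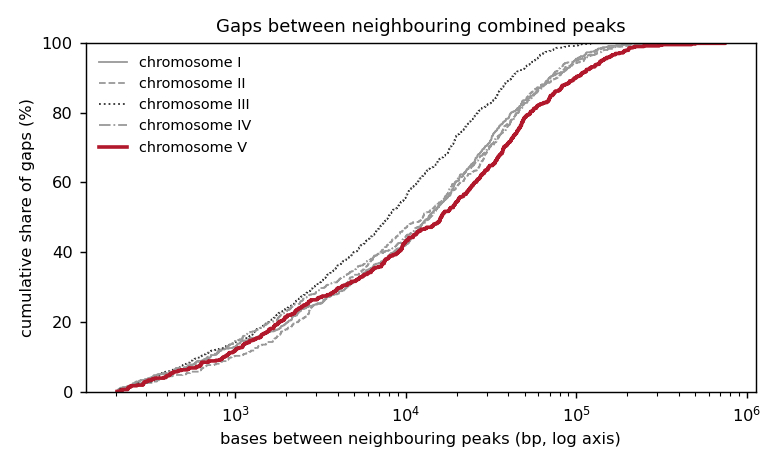
Cumulative share of gaps between neighbouring combined peaks on each autosome. The x axis is the gap in bp on a log scale, the y axis is the share of gaps up to that size, and V is the thick red line. Up to 5000 bp V runs with I, II and IV, and beyond about its median of 16079 bp it lies to the right of all others.

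Counted in bins of 100 kb, V had 46 of 209 bins without a combined peak (22.0%), against 0.72 to 9.15% on the other autosomes. The share of empty bins was highest on V in the replicates too, at 43.1% against 10.9 to 37.1% in replicate 1 and 35.9% against 5.80 to 23.2% in replicate 2. V had 48 bins with 5 or more combined peaks (23.0%), against 27.5 to 63.8%.

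The densest bin, from V 10800001, held 14 combined peaks, 5 in replicate 1 and 6 in replicate 2. Of the 14, 4 were found in both replicates and 7 in neither. Those in both were V 10897057 to 10897589 with a strength of 42.4, V 10807867 to 10808271 with 22.3, V 10894499 to 10894991 with 13.7 and V 10871251 to 10871825 with 8.13. The 7 in neither had strengths from 3.75 to 5.47. The next bin, from V 10200001, held 9 combined peaks but 0 of replicate 1 and 2 of replicate 2. The bins from V 11000001, V 11100001 and V 11600001 had 8 each, of which 4, 2 and 2 were found in both replicates. They tied with 4 more bins, at V 11800001, V 14000001, V 20400001 and V 20700001, which held 3, 1, 2 and 5 peaks found in both.

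About as many V peaks stood alone as had a close neighbour. With neighbours at most 5000 bp apart joined, 280 peaks (50.9%) fell into 106 clusters and 270 stood alone. There were 64 clusters of 2 peaks, 25 of 3, 9 of 4 and 8 of 5 or more, of which the largest held 6. The other autosomes had 51.6 to 61.5% of their combined peaks in clusters (exact permutation p = 0.4), with a largest cluster of 7 to 12 peaks. The order differed in the replicates. V had 41.0% in clusters in replicate 1, second to chromosome III at 44.3%, and 39.5% in replicate 2, within 35.9 to 47.9%.

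Clusters were most frequent in the centre. It held 75 of the 106, and 55.2% of its peaks were clustered, against 44.6% in the left arm and 40.8% in the right arm. In replicate 1 the shares were 45.1% in the centre, 40.0% in the left arm and 28.3% in the right arm. In replicate 2 they were 41.4, 44.4 and 28.1%, so the right arm had the lowest share of clustered peaks in each list. Clustered peaks were wider than single ones, with a median of 603 against 446 bp. They were found in both replicates at 38.6% (33.1 to 44.4%), against 33.7% for single peaks (28.3 to 39.5%). These intervals overlap, but they count clustered peaks as independent and are no test.

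Of the 8 clusters with 5 peaks or more, 5 lay in the centre between V 10031196 and V 11824900, and 3 lay near the right end. The largest, V 10168740 to 10178639, held 6 peaks in 9900 bp. Its strongest peak, V 10174282 to 10175130, had a strength of 15.1, with 10.3 in replicate 1 and 7.10 in replicate 2, and 3 of the 6 were found in neither replicate. The clusters at V 10031196 to 10047127 and V 10867611 to 10877960 held 5 peaks each, of which 4 were in neither replicate. Their strongest peaks reached 9.08 and 8.13.

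The other clusters of the centre had stronger peaks. V 10951434 to 10965886 held 5 peaks in 14453 bp, all found in at least 1 replicate and 3 in both. It ended with the sharp peak V 10965426 to 10965886, at 15.8 in replicate 1 and 19.7 in replicate 2. V 11817432 to 11824900 held 5 peaks in 7469 bp with gaps of only 203 to 772 bp. Its rightmost pair was found in both replicates, with combined strengths of 17.3 and 25.2, and the other 3 were found in neither.

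The 3 large clusters of the right arm held 5 peaks each. V 20771831 to 20786909 was the best supported, with all 5 in replicate 2, 3 of them in both replicates, and a highest strength of 49.3. V 19519494 to 19533748 reached 30.97 and had 3 peaks in both replicates. V 20474352 to 20482256 was weaker, at up to 12.1, with 1 peak in both and 3 in neither.

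Support by the single samples was compared by overlap of at least 1 bp. Of the 550 V peaks, 199 (36.2%, Wilson interval 32.3 to 40.3%) overlapped a peak in both replicates, where the share over all 3503 combined peaks was 35.7%. Overlap with replicate 2 alone was seen for 93 peaks (16.9%), and with replicate 1 alone for 24 (4.36%). On the other 4 autosomes together these shares were 19.0 and 5.11%. No overlap with either was seen for 234 (42.5%, 38.5 to 46.7%), where the share over all combined peaks was 40.9%. In its shares found in both and in neither, V was thus close to the whole list. Among the autosomes its share in both was rank 3 of 5, between 27.7% on chromosome I and 38.7% on IV (exact permutation p = 0.8).

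Support followed strength closely. Of the strongest of the 4 groups of V peaks, 129 of 138 (93.5%, 88.1 to 96.5%) were in both replicates and 0 in neither. Of the group below it 46.0% were in both, of the next 5.11%, and of the weakest 0 of 138 (Wilson upper limit 2.71%), where 92.0% were in neither. The same limits of strength gave 91.5, 33.6, 3.99 and 0.18% on the other 4 autosomes. Where V had 46.0%, chromosome I had 13.2%, and II, III and IV had 38.1, 36.7 and 46.5%. On chromosome I the combined strength was a median of 2.37 times the mean of the replicate strengths, against 1.82 on V and 1.82 to 1.93 on II, III and IV. Since combined and replicate lists share their ChIP samples by name, the rise of support with strength is a description with no test.

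**Figure D4:**
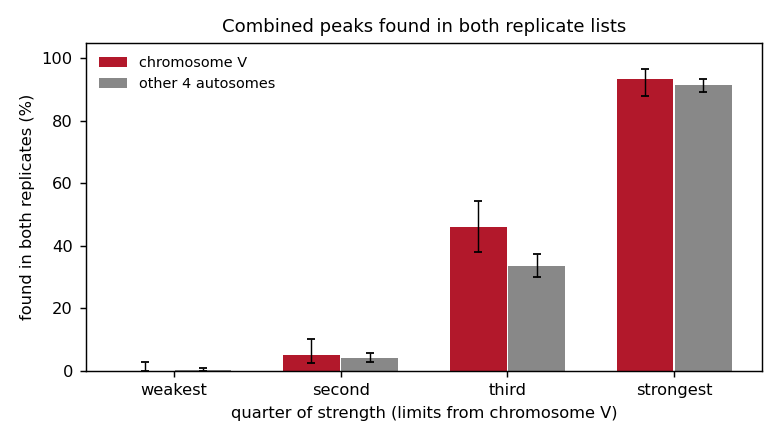
Share of combined peaks found in both replicate lists, in 4 groups by strength, for V (red) and the other 4 autosomes together (grey). The y axis is the share in percent, the limits of the groups split the V peaks evenly, and bars carry 95% Wilson intervals. On V the share rises from 0 to 93.5% between the weakest and the strongest group.

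Narrow peaks had the least support. None of the 67 V peaks under 300 bp was found in both replicates (0 of 67, Wilson upper limit 5.42%), and 61 were in neither. The share in both was 31.5% for peaks from 300 to under 500 bp, 39.4% to under 1000 bp, 59.7% to under 2000 bp and 72.4% for wider ones. Median strength rose along the same classes, from 4.18 in the narrowest to 22.9 in the widest. The weakest group of V peaks, with strengths up to 4.55, also had 0 in both, at a median width of 408 bp. Whether width matters apart from strength was not tested. By zone, 42.2% of V peaks of any width were found in both in the left arm (32.1 to 52.9%), 34.9% in the centre (30.2 to 39.9%) and 35.9% in the right arm (27.3 to 45.5%).

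The first 43 V peaks by strength were all found in both replicates. The next, V 6276020 to 6278475 (2456 bp, strength 21.3), overlapped replicate 2 alone, as V 6277079 to 6278527 with 12.4. The strongest V peaks found in neither replicate were V 13566548 to 13567530 (8.75), V 5580270 to 5581257 (8.63), V 9095570 to 9096112 (8.47) and V 122763 to 124186 (8.45). All 4 had a neighbour within 2466 bp. At the other end, the weakest V peak found in both was V 13568547 to 13568904, with 5.16 in the combined list, 3.99 in replicate 1 and 5.06 in replicate 2. It lies 1016 bp beyond the end of V 13566548 to 13567530, the strongest of those found in neither.

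Taken replicate against replicate, 212 of the 239 V peaks of replicate 1 (88.7%, 84.1 to 92.1%) overlapped a peak of replicate 2. The share was 81.5 to 91.4% on the other autosomes. Of the 314 V peaks of replicate 2, 207 (65.9%, 60.5 to 70.9%) overlapped replicate 1, against 61.8 to 65.0%. Unshared V peaks were weak in replicate 1, where the strongest, V 10951439 to 10952172, had 5.84. It was followed by V 16369987 to 16370336 (5.76), V 15187591 to 15188060 (5.63) and V 9165179 to 9165695 (5.40). In replicate 2 they reached 12.4 in the peak named above, 10.1 at V 18894981 to 18895354, 9.25 at V 8247592 to 8248154 and 9.12 at V 17921402 to 17921743. All 8 overlapped a combined peak.

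Strengths of V peaks agreed less closely between replicates than those of other autosomes. Across the 212 V pairs Spearman's rho was 0.62, and it was 0.73 to 0.80 elsewhere. Several replicate 1 peaks could share 1 wide partner. Among the 201 V pairs in which each peak had 1 partner, rho was 0.68, and it was 0.73 to 0.83 on the others. These values describe peaks of the same ChIP samples and carry no test. Over all peaks of a list, the upper quartile of strength was also lowest on V. It was 8.24 against 9.97 to 10.3 in replicate 1 and 9.15 against 10.3 to 11.4 in replicate 2. Whether this narrower range lowers rho on V was not tested. Replicate 2 had the higher value in 156 V pairs (73.6%), with a median ratio of 1.22, and starts and ends differed by medians of 55 and 56 bp.

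**Figure D5:**
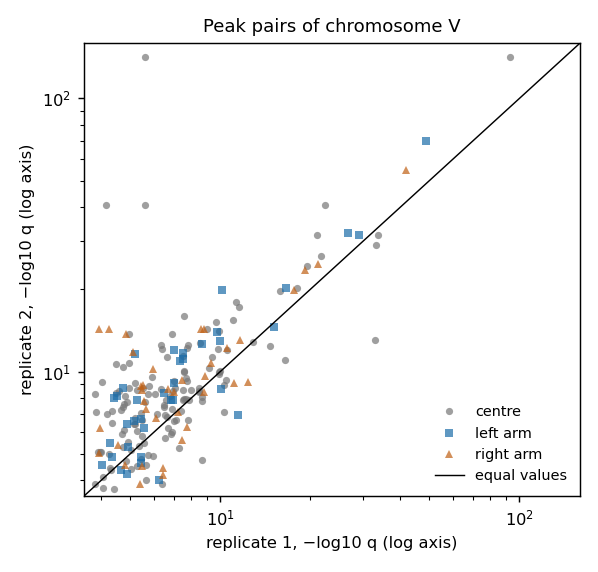
Strength of overlapping peaks on chromosome V in replicate 1 (x axis) and replicate 2 (y axis), both as −log10 q on log scales, with 1 point for each of the 212 pairs and the zone given by symbol and colour. Most points (156) lie above the line of equal values, and points far above it at the left include weak replicate 1 peaks whose partner is a broad replicate 2 domain.

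Few V peaks of a single sample were absent from the combined list, and few were absent on the other autosomes too. On I to IV those absent were 1 of 175, 2 of 225, 5 of 395 and 1 of 269 in replicate 1. In replicate 2 they were 1 of 251, 8 of 309, 17 of 497 and 15 of 392. The peak absent on chromosome I had a strength of 88.95 in replicate 1 and 63.7 in replicate 2. Each was the highest strength of chromosome I in its list, and why the combined list lacks it was not tested. On II, III and IV the absent peaks reached 4.12 to 4.23 in replicate 1 and 4.57 to 7.14 in replicate 2. Every replicate 1 peak on V overlapped a combined peak. In replicate 2, 8 of 314 did not, of which the strongest were V 16040515 to 16040757 (strength 5.77), V 9338300 to 9338816 (5.50), V 10944304 to 10944757 (4.39) and V 6879241 to 6880031 (4.10). The first of them lies inside the long gap that starts at V 15881201.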

How the data were processed

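The data were 3 PeakSeq peak lists on WormBase WS180, per the file headers and records, 1 for each ChIP replicate and 1 combined. The authors deposited a first base, a last base and a q-value for each peak. From these q-values −log10 q was computed as strength. Zones and chromosomes were compared in strength within 1 list only. Between lists, strengths were set side by side only for overlapping peaks, as a description. Such ratios depend on the unknown depth behind each list. Not given in the sources used here: the aligner, filters, PeakSeq version, q threshold and how the combined list was made. Groups follow sample titles, since the description fields of ChIP and input samples appeared exchanged. Input values were not analysed here.

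The extent of a chromosome was its last peak end in any list. Peaks were placed in arms or centre by midpoint and matched between lists by an overlap of at least 1 bp, with the largest overlap as partner. Chromosome V was compared with the other 4 autosomes by exact two-sided permutation tests over chromosomes, adjusted by the Benjamini-Hochberg method over 20 tests. Named peaks are the 20 strongest, the 10 widest, the 5 largest clusters (ties by first base), densest bins and longest gaps, and up to 4 of each kind of unsupported peak. The weakest supported peak, peaks beside the arm limits, those inside the densest bin tied bins and clusters and further sharp or split peaks were picked after their values were seen. The members and measures were chosen with earlier results of these data known, among them the low arm share of V. Functions were tested on simulated lists. A genome of build WS180 was not used here, so no sequence is printed. Scripts ran in Python 3.11.15 with pandas 2.3.3, numpy 2.4.6 and scipy 1.17.1, and figures were drawn with matplotlib 3.10.9.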

Additional observations from a re-analysis of the deposited data

How the results depend on the processing

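Of 58 alternatives over the 8 comparisons with the other autosomes, 47 kept the direction of the difference and 11 turned it. As 5 chromosomes cannot give a p under 0.2, no alternative could pass a threshold. The arm share of V stayed below the mean of the others in all 9 of its alternatives, from 28.5% with arms of 20% at each end to 52.0% with the widest arms tried. Density (9.53 to 26.3 peaks per Mb) and the median gap (16079 to 62234 bp) also kept their direction in all 7 each. In these comparisons, and in those of width and clustering, leaving out chromosome I or III could not turn the direction. There V lay outside the range of all the other autosomes in the combined list. The comparisons of width, strength, clustering and support, whose differences were small, turned in places, and the cause was not tested. Leaving out a replicate meant using the list of the other. Median width then turned in both cases, at 493 bp against a mean of 498.25 bp without replicate 1 and 495 against 503 bp without replicate 2. Without replicate 1, median strength (6.77 against 6.47) and the share found in the remaining replicate (53.1 against 53.8%) turned. Without replicate 2, the share in clusters (41.0 against 35.2%) and the share not found in the remaining replicate (59.5 against 60.4%) turned. The rest kept their direction. These were strength (5.97) and the share found (40.5%) without replicate 2, and the shares in clusters (39.5%) and not found (46.9%) without replicate 1. The share in clusters also turned with neighbours within 2000 bp (37.6% on V against a mean of 36.4%) and with peaks found in both replicates (32.7 against 29.9%). The share found in both turned without chromosome I among the others (36.2 against 37.2%). The share found in neither turned without chromosome III (42.5 against 42.9%) and with q up to the list's median (5.02 against 8.74%). The alternatives limited to peaks found in both replicates, and those without chromosome I or III, were chosen after seeing the data. No paired analysis was possible because the samples sharing a replicate number are a ChIP sample and its input, and input values were not analysed here. Peak numbers and strengths depend on the unknown depth.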
